A study of Mus musculus with 8 samples.

Results

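Vcam1, Icam1, Mcam, Alcam, L1cam, Ncam1 and F11r, 7 genes of cell adhesion molecules with immunoglobulin domains, were followed in cultured LLC cells (Lewis lung carcinoma, a mouse lung carcinoma line). They were taken by symbol from the 55487 genes of the count table and were chosen by a measured value, the difference in Vcam1 and other members between the genotypes in these same libraries, so that difference is described here without a test. Stranded poly(A) libraries were sequenced for wild-type cells (4 libraries) and ΔAgo2 cells (4 libraries), grown in the same medium and all marked as batch 1. In ΔAgo2 cells the gene of Argonaute 2, the protein that carries microRNAs to their target transcripts, was cut with CRISPR-Cas9 from a lentivirus, followed by puromycin selection and sorting of single cells. How many clones were sequenced, and whether wild-type cells had received an empty vector, is not given in the sources used here. The libraries are labelled as biological replicates without a statement that each came from its own culture, so errors measure the spread between these libraries.

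Immunoglobulin-family adhesion molecules are membrane proteins that hold cells to other cells or to leukocytes. Vcam1 and Icam1 are the classical molecules that endothelium puts up under inflammatory cytokines, where they bind the leukocyte integrins α4β1 and αLβ2. Alcam binds CD6 and itself, F11r (JAM-A) seals epithelial and endothelial junctions, and Mcam, Ncam1 and L1cam act in melanoma, vascular and neural cells. NF-kB is the best known activator of Vcam1 and Icam1 transcription.

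In wild-type cells the most abundant of these transcripts were Alcam and Vcam1, and in ΔAgo2 cells Vcam1 alone led. Vcam1 was 2.73-fold higher in ΔAgo2 than in wild-type libraries, Mcam was 6.89-fold lower, and for both the groups did not overlap. Alcam, L1cam, Ncam1 and F11r lay higher on average in ΔAgo2 libraries with overlapping groups, and Icam1 was close to absent from both genotypes. The plot of transcript levels by library shows each of these patterns.

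**Figure D1:**
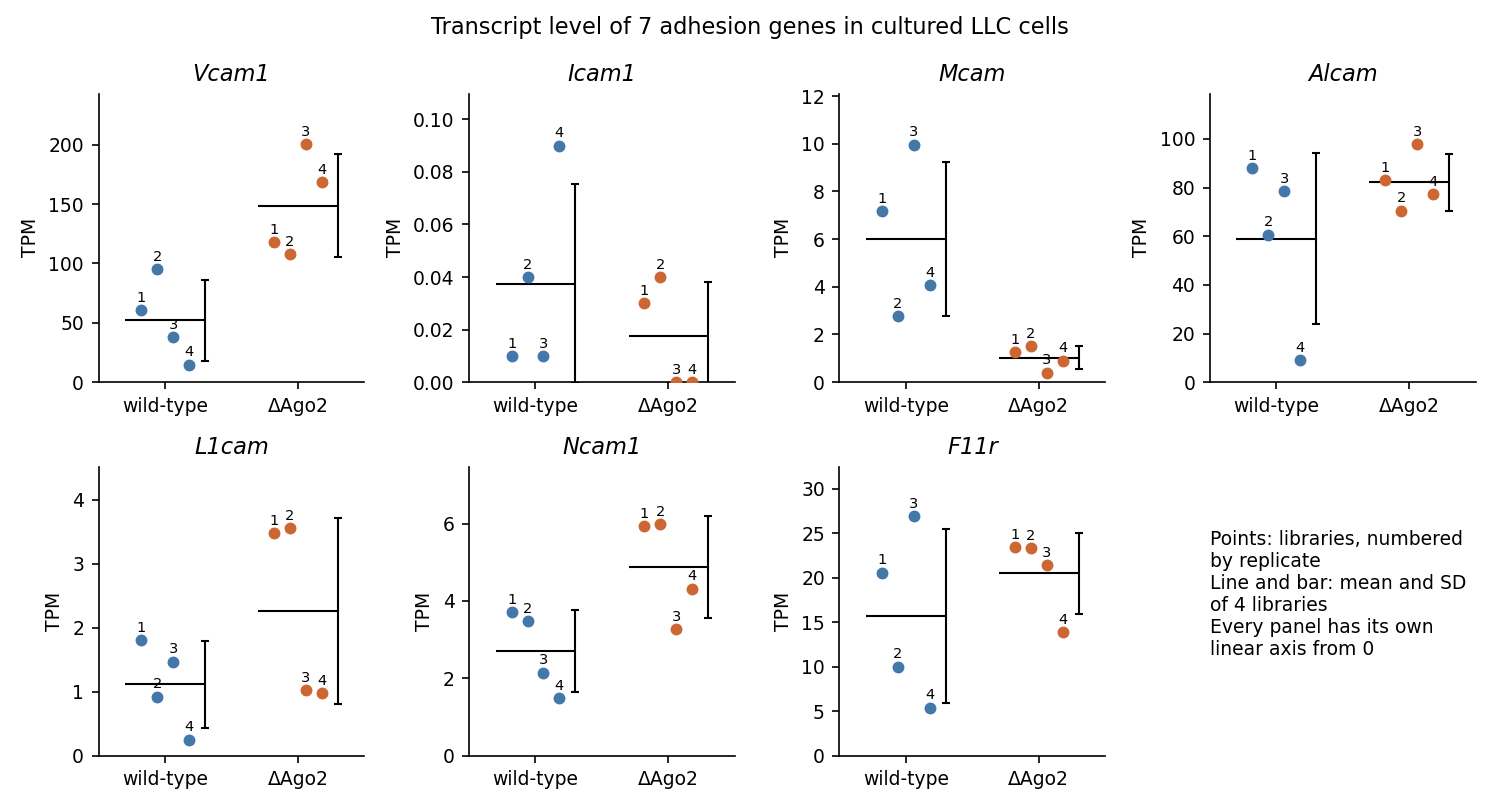
Transcript level (TPM, linear axis from 0, a separate axis per gene) of the 7 adhesion genes in 4 wild-type (blue) and 4 ΔAgo2 (orange) libraries, where points are libraries numbered by replicate and the line and bar are mean and SD. For Vcam1 all ΔAgo2 points lie above all wild-type points, for Mcam all lie below, and for Icam1 no library exceeds 0.09 TPM.

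Promoter sequence could be read for 5 of the 7 genes from RefSeq, as windows from 250 bases before to 50 bases after the annotated start on GRCm38.p6. Vcam1 and Ncam1 had no window, so their promoters were not searched for any motif. Shown here are Icam1, the gene with almost no transcript, at chr9:21015690-21015989 on the plus strand, and Mcam, the gene with the widest genotype difference, at chr9:44134408-44134707 on the plus strand. Capitals mark matches, on either strand, to GGANNTTCC (a loose NF-kB-like palindrome) and TTCNNNGAA (the STAT core). They also mark TATAAA (the TATA box) and GGGCGG (the GC box of Sp1).
Icam1: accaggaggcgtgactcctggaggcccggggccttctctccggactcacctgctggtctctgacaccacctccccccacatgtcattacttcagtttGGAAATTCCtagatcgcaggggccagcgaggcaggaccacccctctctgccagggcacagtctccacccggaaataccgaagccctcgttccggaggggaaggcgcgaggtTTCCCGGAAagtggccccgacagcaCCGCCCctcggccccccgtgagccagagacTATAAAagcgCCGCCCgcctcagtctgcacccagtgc
Mcam: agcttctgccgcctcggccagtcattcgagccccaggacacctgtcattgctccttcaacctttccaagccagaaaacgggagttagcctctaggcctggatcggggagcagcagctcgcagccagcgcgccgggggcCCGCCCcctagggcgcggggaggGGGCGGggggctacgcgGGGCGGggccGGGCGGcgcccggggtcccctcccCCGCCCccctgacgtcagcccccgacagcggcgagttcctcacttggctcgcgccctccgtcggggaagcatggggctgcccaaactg
The Icam1 window held GGAAATTCC at position -153 and TTCCCGGAA at -42 relative to the RefSeq start. It also held a TATAAA at 14 and CCGCCC, the reverse strand of the GC box, at -17 and 24. GENCODE places the gene starts elsewhere, at 21015985 for Icam1 and at 44134469 for Mcam. All marked sites of Icam1 lie before the GENCODE start, and all those of Mcam lie after it. GGANNTTCC was present in 4.27% of 32544 mouse promoters of this length, TTCNNNGAA in 8.33%, TATAAA in 13.6% and GGGCGG in 35.9%. The Mcam window held 5 GC boxes and none of the other motifs searched, with a GC content of 72.7% and 29 CpG dinucleotides, against a median of 53.0% and 7 over all promoters. The other windows read were rich in GC too, from 60.3% for F11r to 69.7% for Alcam. They held 19 to 25 CpG and at least 1 GC box each, and those of Alcam and L1cam likewise held no other motif. The motif TGANTCA, bound by AP-1, was found at -109 of the F11r window and in 7.79% of all promoters. A stricter NF-kB consensus, GGGRNWYYCC, was searched too, with matches in 4.53% of all promoters. It was not spelled in any of the windows of these 5 genes, of which L1cam has 2. The GGAAATTCC of Icam1 matches the looser pattern only, so the Icam1 window is not without an NF-kB-like match. No 2 of the capitalised matches overlap. A match of letters does not show a bound site, and a window without one says nothing about the factor.

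A microRNA well known for acting on Vcam1 transcripts in human endothelium is miR-126. Its mouse sequence in RefSeq is given with the seed, bases 2 to 8, in capitals, since Argonaute proteins find a target by the seed.
mmu-miR-126a-3p: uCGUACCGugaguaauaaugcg
The longest annotated 3′ untranslated region of mouse Vcam1 (GENCODE M21) has 1404 bases, and the reverse complement of the seed, CGGTACG, was not spelled in it. Over 21010 mouse genes, 0.157% held the 7 letters in theirs. MicroRNAs were not measured in these libraries.

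The libraries held from 39628101 to 68530912 counts, and of the 7 genes counting error was widest for Icam1, at 6 counts or fewer in every library, and next for Mcam in ΔAgo2 libraries, at 16 to 69 counts. Ago2 itself was counted 15049, 19033, 34965 and 3842 times in the wild-type libraries and 23871, 12319, 16662 and 16715 times in those labelled ΔAgo2, with overlapping groups, and its transcript therefore does not check the genotype labels. Wild-type replicate 4 stood apart, since the higher the GC content of a gene, the higher it lay there relative to the rest of its group (Spearman correlation 0.722 across 14226 genes, which are not independent replicates). ΔAgo2 replicates 1 and 2 were the closest pair, with a chi-square of 22.8 per gene against 89 to 126 for the other ΔAgo2 pairs. Wild-type pairs were further apart, at 363 to 579 among replicates 1 to 3 and at 1120 to 1590 with replicate 4. Keratins Krt8 and Krt18 and the mesenchymal Vim were abundant in every library, while Epcam, Cdh1 and the lung genes Nkx2-1 and Sftpc had at most 9 counts. The cells thus carried simple-epithelial keratins with almost no transcript of Epcam or Cdh1. The fewer or more cells that transcribe a gene and the less or more RNA each holds cannot be told apart in such bulk libraries.

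Vcam1 (ENSMUSG00000027962.14) is a gene of chromosome 3 (116109949 to 116129688, minus strand, GRCm38). Replicates 1 to 4 of the wild-type gave 8590, 15186, 6572 and 1899 counts, and those of ΔAgo2 gave 17048, 11104, 21427 and 22349. As TPM, counts per gene length scaled to the same sum in every library, it stood at 60.8, 94.9, 37.7 and 14.8 in wild-type and at 118, 108, 200.3 and 168 in ΔAgo2 libraries. The lowest ΔAgo2 library thus lay above the highest wild-type library, and ΔAgo2 replicates 3 and 4 were above replicates 1 and 2. In CPM, which divide by the effective library size, wild-type libraries averaged 137 ± 71.1 and ΔAgo2 libraries 372 ± 125 (SD, 4 libraries each), a log2 fold change of 1.45 (SE 0.43, edgeR). By mean TPM, Vcam1 was above 76.9% of the tested genes in wild-type and above 92.3% in ΔAgo2 cells. Vcam1 has a low GC content, 40.1% over its longest annotated transcript, and wild-type replicate 4 held it at 1.39 below the other wild-type libraries on the log2 CPM scale. Without that library its log2 fold change was 1.20, and after correction of each library for GC content it was 1.10.

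Icam1 (ENSMUSG00000037405.8, chromosome 9, 21015985 to 21028817, plus strand) had 1, 3, 1 and 6 counts in wild-type libraries and 2, 2, 0 and 0 in ΔAgo2 libraries. At or near the floor of 3 counts in both genotypes, it was not tested and no fold is given. No library exceeded 0.09 TPM, whereas Vcam1, which inflamed endothelium raises together with it, was at no less than 14.8 TPM. A difference in Icam1 between the genotypes was not detectable at this depth.

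Mcam (ENSMUSG00000032135.15), known as CD146 and first described in melanoma, is a gene of chromosome 9 (44134469 to 44142727, plus strand). Wild-type libraries gave 383, 168, 656 and 198 counts and ΔAgo2 libraries 69, 59, 16 and 45. The TPM values were 7.18, 2.78, 9.96 and 4.07 in wild-type and 1.26, 1.52, 0.40 and 0.90 in ΔAgo2 libraries, so every ΔAgo2 library was below every wild-type library. The mean was 5.998 ± 3.22 TPM (SD, n = 4) in wild-type and 1.02 ± 0.485 TPM in ΔAgo2 libraries, a log2 fold change of -2.79 (SE 0.55). Wild-type replicate 4 differed little from the other wild-type libraries for Mcam, by 0.12 on the log2 CPM scale, and without it the log2 fold change was -2.80.

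Since Vcam1 and Mcam each separated the genotypes, in opposite directions, their ratio had to separate them too and adds no support. The ratio of Vcam1 to Mcam TPM was 8.47, 34.2, 3.78 and 3.62 in wild-type replicates 1 to 4 and 93.7, 71.0, 501 and 187 in ΔAgo2 replicates 1 to 4.

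Alcam (ENSMUSG00000022636.13), the activated leukocyte adhesion molecule, is a gene of chromosome 16 (52248996 to 52454074, minus strand). It stood at 87.9, 60.6, 78.4 and 9.12 TPM in wild-type and at 82.9, 70.4, 97.8 and 77.2 TPM in ΔAgo2 libraries. Apart from wild-type replicate 4 the groups covered the same range. Its log2 fold change of 0.38 (SE 0.48) came to 0.06 without wild-type replicate 4, the library in which Alcam was 2.39 lower on the log2 CPM scale than in the other wild-type libraries.

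F11r (ENSMUSG00000038235.4, chromosome 1, 171437535 to 171464603, plus strand), the junctional adhesion molecule, was at 20.6, 10.0, 26.9 and 5.41 TPM in wild-type and at 23.4, 23.3, 21.4 and 13.9 TPM in ΔAgo2 libraries. The highest and the lowest library were both wild-type, and the ΔAgo2 range lay inside that of the wild-type. Its log2 fold change was 0.23 (SE 0.43), and 0.02 without wild-type replicate 4 or 0.0028 without wild-type replicate 2.

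The neural adhesion molecules Ncam1 and L1cam were low. Ncam1 (ENSMUSG00000039542.16, chromosome 9, 49502136 to 49798925, minus strand) stood at 3.71, 3.48, 2.15 and 1.48 TPM in wild-type and 5.93, 5.99, 3.27 and 4.32 TPM in ΔAgo2 libraries, and the lowest ΔAgo2 library overlapped the wild-type range. Its log2 fold change was 0.68 (SE 0.33). L1cam (ENSMUSG00000031391.18, chromosome X, 73853778 to 73896105, minus strand) stood at 1.81, 0.92, 1.47 and 0.25 TPM in wild-type and 3.48, 3.56, 1.02 and 0.98 TPM in ΔAgo2 libraries. The ΔAgo2 libraries of L1cam fell into a high pair, replicates 1 and 2, and a low pair inside the wild-type range, and the log2 fold change was 0.86 (SE 0.61). Replicates 1 and 2 were also the higher ΔAgo2 libraries for Ncam1 and the lower ones for Vcam1.

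**Figure D2:**
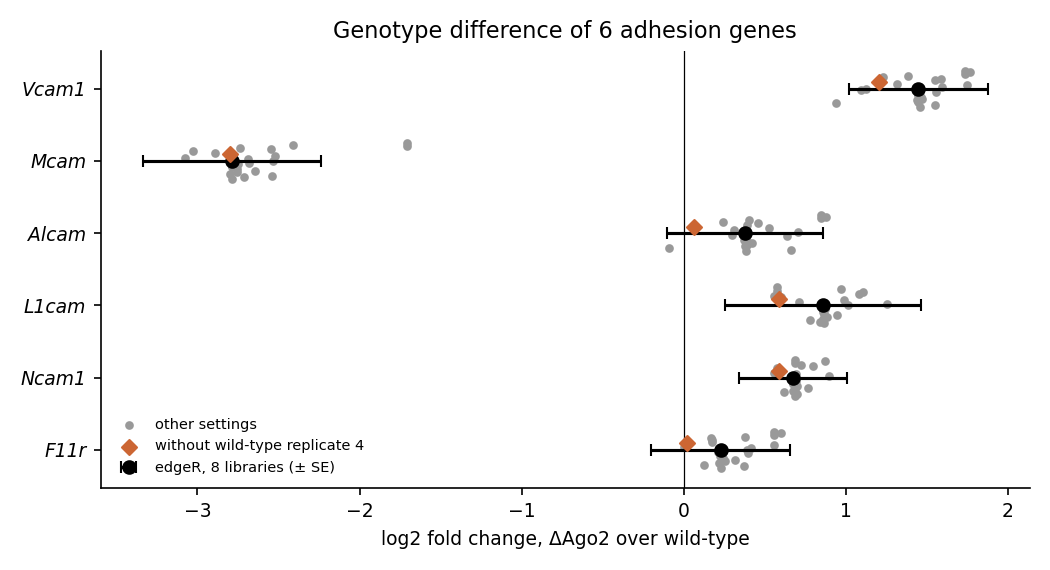
Log2 fold change of ΔAgo2 over wild-type for the 6 genes with enough counts: black, edgeR on 8 libraries with its SE; grey, the other settings of test, scaling, filter and left-out library; orange diamond, without wild-type replicate 4. Vcam1 stays between 0.94 and 1.76 and Mcam between -3.08 and -1.71, while Alcam and F11r come close to 0 without wild-type replicate 4.

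Ordered by median TPM, the wild-type levels ran Alcam 69.5, Vcam1 49.2, F11r 15.3, Mcam 5.63, Ncam1 2.82, L1cam 1.20 and Icam1 0.025. Neighbours in that order overlapped in range except L1cam and Icam1, and Alcam was above Vcam1 in 2 of 4 libraries. In ΔAgo2 cells the order was Vcam1 143, Alcam 80.1, F11r 22.4, Ncam1 5.13, L1cam 2.25, Mcam 1.08 and Icam1 0.015, with overlap only between Ncam1 and L1cam and between L1cam and Mcam. By median Mcam thus stood above Ncam1 and L1cam in wild-type and below both in ΔAgo2 cells. It was above Ncam1 in 3 of 4 wild-type libraries, not in wild-type replicate 2. Vcam1 made up between 24.1% and 54.9% of the summed TPM of the 7 genes in wild-type libraries and between 50.2% and 63.4% in ΔAgo2 libraries.

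Of the 6 genes left by the expression filter, 0 were called by edgeR at an adjusted p of 0.05, where 0.295% of the 14228 tested genes were (0.0773% as higher and 0.218% as lower in ΔAgo2). The groups did not overlap in CPM for Vcam1 and Mcam, against 6.07% of all tested genes (3.09% higher, 2.98% lower). Since the genes were taken for this contrast, nothing is read from these counts.

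Wider lists of adhesion genes were set beside these genes. Among 64 other immunoglobulin-family adhesion genes, 24 were at the floor in both genotypes and 28 were tested, of which 9 were higher and 19 lower in ΔAgo2. Their median log2 fold change was -0.39 where that of all tested genes was -0.11, and without wild-type replicate 4 the medians were 0.01 and -0.04. None was called by edgeR, and 2 higher and 4 lower genes had an unadjusted p under 0.05, where 2.72% of all tested genes were higher and 4.62% lower at that threshold. Without wild-type replicate 4 this turned to 6 higher and 2 lower genes, against 5.52% and 7.04% of all 14541 genes tested then, and 1 of the list was called against 0.777%. The groups did not overlap in CPM for Cadm1, Ncam2 and Nptn, which were higher, and for Icam4, Icam5 and Nectin1, which were lower, against 3.09% and 2.98% of all tested genes. DESeq2, which called 2.23% of 17926 genes, called Cadm1, Ncam2, Icam5, Igsf5 and Igsf11. Igsf5 had 1 to 69 counts in wild-type and 0 to 2 in ΔAgo2 libraries, and Igsf11 had 3 to 35 and 0 to 1. Both were at the floor in ΔAgo2 and were removed by the expression filter of edgeR. Their DESeq2 calls thus rest on the wild-type libraries, where they are high. Igsf5, Igsf11 and Nptn are named after their values were seen. Limma-voom with sample quality weights called Cadm1 and Icam5 (1.81% of 14228 genes) and edgeR without a filter called Ncam2 (0.515% of 27776 genes). Where an adjusted p is printed beside a gene named from the lists, it is that of edgeR, and none of those printed passed.

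Cadm1, a homophilic synaptic and epithelial adhesion molecule, stood at 9.04, 18.1, 12.97 and 5.22 TPM in wild-type and 35.8, 30.9, 25.4 and 36.5 TPM in ΔAgo2 libraries, with no overlap (log2 fold change 1.39, SE 0.28, adjusted p = 0.0991). Without wild-type replicate 4 it passed the threshold, at a log2 fold change of 1.25. Ncam2, the paralog of Ncam1, had 5, 14, 0 and 0 counts in wild-type and 60, 34, 63 and 217 counts in ΔAgo2 libraries (adjusted p = 0.170). These are low levels, at most 1.28 TPM, and the gene passed the expression filter (0.198 CPM, 10 counts at the median library size, in at least 4 libraries) with 1 wild-type and 4 ΔAgo2 libraries, so that it had to differ and its p and its lack of overlap rest on that selection. The paralogs of Icam1 that red cells and neurons use, Icam4 and Icam5, lay lower in ΔAgo2 libraries. Icam5 stood at 2.73, 1.71, 4.63 and 1.75 TPM in wild-type and 1.08, 1.17, 0.96 and 0.84 TPM in ΔAgo2 libraries (log2 fold change -1.61, SE 0.43, adjusted p = 0.277), and Icam4 between 0.85 and 2.36 against between 0.37 and 0.90 TPM (adjusted p = 0.458). Icam4 passed the filter in turn with 4 wild-type libraries and 1 ΔAgo2 library. Bcam, the laminin-binding Lutheran antigen, had a log2 fold change of -1.81 (SE 0.66, adjusted p = 0.537) with overlapping groups, and Nectin1, a partner of cadherin junctions, one of -0.75 (SE 0.32, adjusted p = 0.646).

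**Figure D3:**
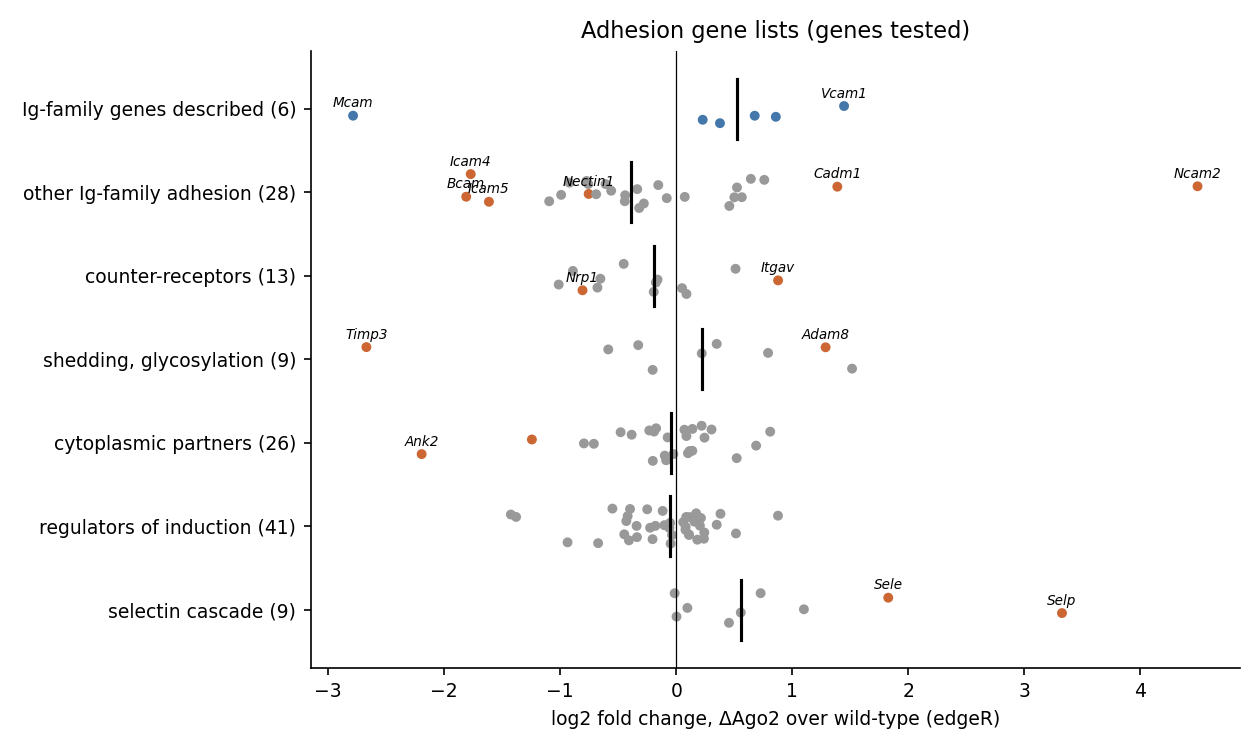
Log2 fold change of ΔAgo2 over wild-type (edgeR) for the tested genes of the 7 adhesion genes described (blue) and of 6 wider lists, with the number tested in brackets, the list median as a black line and genes at an unadjusted p under 0.05 in orange. Vcam1 and Mcam lie at the ends of their row, Ncam2, which passed the expression filter through its ΔAgo2 libraries, is the highest point, and the medians of the wider lists lie between -0.39 and 0.56.

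The counter-receptors of these molecules were present only in part. Itga4, the α4 chain that pairs with Itgb1 to bind Vcam1, had at most 1 count in any library, while Itgb1, the β chain of many integrins, ranged from 106 to 1149 TPM and Itgb7, the other partner of Itga4, from 111 to 535 TPM. Itgal, the αL chain of the Icam1 receptor, had at most 11 counts, and its partner Itgb2 ranged from 3.07 to 15.0 TPM. Of 21 counter-receptor genes 13 were tested, 4 higher and 9 lower in ΔAgo2, with a median log2 fold change of -0.19 and 0 called. Itgav, the αV chain that binds L1cam, was between 10.9 and 73.5 TPM in wild-type and between 78.5 and 116 TPM in ΔAgo2 libraries without overlap (log2 fold change 0.88, SE 0.39, adjusted p = 0.678), and wild-type replicate 4 was its lowest library. Nrp1, which binds semaphorins and L1cam, was between 2.51 and 9.47 TPM in wild-type and between 2.53 and 4.92 TPM in ΔAgo2 libraries (log2 fold change -0.81, SE 0.34, adjusted p = 0.642).

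Of 14 genes for the shedding and glycosylation of adhesion molecules 9 were tested, 5 higher and 4 lower, with a median log2 fold change of 0.22 and 0 called. Timp3, the tissue inhibitor that blocks ADAM17, the protease that sheds Vcam1, was at 2.74, 0.38, 4.40 and 1.05 TPM in wild-type and 0.39, 0.50, 0.17 and 0.48 TPM in ΔAgo2 libraries. Only wild-type replicate 2 reached down into the ΔAgo2 range (log2 fold change -2.67, SE 0.71, adjusted p = 0.277), and without it edgeR called the gene, as it did 0.541% of 14413 genes. Adam8, a protease of leukocytes and tumors, was at 7.65, 2.96, 3.63 and 1.81 TPM in wild-type and 15.3, 15.9, 10.9 and 2.85 TPM in ΔAgo2 libraries (log2 fold change 1.29, SE 0.56, adjusted p = 0.666).

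Of 26 cytoplasmic partners, the ankyrins, ezrin family, actinins and junction scaffolds that tie these tails to actin and spectrin, all were tested, 12 higher and 14 lower, with a median of -0.05 and 0 called. Ank2, an ankyrin that holds L1cam-family tails, had a log2 fold change of -2.19 (SE 0.61, adjusted p = 0.3005) at no more than 0.75 TPM.

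Genes known to act on Vcam1 and Icam1 transcription were counted too. Of 45 cytokine, receptor, NF-kB, IRF, STAT, AP-1, GATA and Krüppel-like factor genes 41 were tested, 18 higher and 23 lower, with a median log2 fold change of -0.05. None was called, and edgeR gave 0 of them an unadjusted p under 0.05 against 7.34% of all tested genes. Without wild-type replicate 4 there were 5 at that threshold, Fosl1, Relb and Nfkbib as higher and Klf4 and Rel as lower, at adjusted p from 0.212 to 0.391 (edgeR), where 12.6% of all genes tested in that fit passed the same threshold. These 5 are named after their values were seen.

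The selectins, which slow leukocytes before Vcam1 and Icam1 arrest them, are endothelial genes in the main, yet 2 of them were transcribed here. Selp was at 3.97, 1.03, 1.03 and 0.08 TPM in wild-type and 27.6, 26.4, 8.55 and 6.43 TPM in ΔAgo2 libraries without overlap (log2 fold change 3.32, SE 0.90, adjusted p = 0.284), and DESeq2 called it. Sele was at 18.6, 5.12, 2.83 and 1.04 TPM in wild-type and 44.6, 39.5, 17.7 and 9.68 TPM in ΔAgo2 libraries, and wild-type replicate 1 overlapped the ΔAgo2 range (log2 fold change 1.83, SE 0.78, adjusted p = 0.657). For both selectins ΔAgo2 replicates 1 and 2 were high and 3 and 4 low, the order of L1cam and not that of Vcam1. Of 13 genes of the selectin cascade found in the annotation, 9 were tested, 8 higher and 1 lower, with a median of 0.56 and 0 called by edgeR. Of all 14228 tested genes 5864 were higher, with a median of -0.11. The higher genes of the cascade reached down to a log2 fold change of 0.0025. Only Selp and Sele had an unadjusted p under 0.05 (edgeR), a threshold that 2.72% of all tested genes passed as higher.

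Endothelial and most leukocyte markers were at or near 0, and mesenchymal ones ranged from abundant to near 0. The 9 endothelial markers summed to between 0.08 and 0.44 TPM in wild-type and between 0.22 and 0.83 TPM in ΔAgo2 libraries, with Erg and Cldn5 at 0 counts in every library. Cdh5, the endothelial cadherin, had 9, 3, 0 and 1 counts in wild-type and 39, 28, 9 and 9 counts in ΔAgo2 libraries, highest in the same ΔAgo2 replicates 1 and 2 as the selectins, and its part in their levels was not tested. The 10 leukocyte markers summed to between 1.53 and 6.84 TPM in wild-type and between 1.81 and 2.67 TPM in ΔAgo2 libraries, almost all of it Lyz2, with Cd3e and Nkg7 at 0 and Ptprc at no more than 2 counts. Mesenchymal markers summed to between 3159 and 4440 TPM in wild-type and between 4735 and 5226 TPM in ΔAgo2 libraries, led by Vim, Fn1 and Col3a1. Col1a1, Col1a2, Dcn, Lum, Pdgfrb and Thy1 were at no more than 4.73 TPM in any library. Of 8 mesenchymal markers tested, 3 were higher and 5 lower in ΔAgo2, with a median log2 fold change of -0.10 and 0 called by edgeR. The log2 fold change was 0.78 for Pdgfra (SE 0.57), 0.19 for Vim (SE 0.31), 0.0085 for Col3a1 (SE 0.52), and -2.35 for Pdgfrb, the pericyte receptor (SE 0.76, adjusted p = 0.440, edgeR). Acta2, smooth muscle actin, was at 1.80, 4.14, 137 and 75.2 TPM in wild-type and 0.50, 0.71, 0.08 and 0.79 TPM in ΔAgo2 libraries (log2 fold change -7.01, SE 1.45, adjusted p = 0.107). Mcam is also a gene of pericytes and smooth muscle, and the part of these markers in its difference was not tested. The 11 epithelial markers summed to between 246 and 1673 TPM in wild-type and between 730 and 1133 TPM in ΔAgo2 libraries, nearly all of it Krt8 and Krt18, and 0 of the 3 tested had an unadjusted p under 0.05.

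The plot of the deviation of wild-type replicate 4 against GC content places 6 of the 7 genes. The GC content of their longest annotated transcripts ran from 40.1% for Vcam1 over 44.0% for Alcam, 49.9% for Ncam1, 50.1% for F11r, 53.1% for L1cam and 53.7% for Mcam to 55.4% for Icam1. Over all tested genes that library deviated by a median of -1.55 between 40% and 45% GC and by 0.65 between 50% and 55%, on the log2 CPM scale. Vcam1 at -1.39 lay near the median of its bin, but at the low edge of that bin, and the bin from 35% to 40% had a median of -2.48. Alcam at -2.39, L1cam at -1.73 and F11r at -1.07 lay below the median of genes of like GC content.

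**Figure D4:**
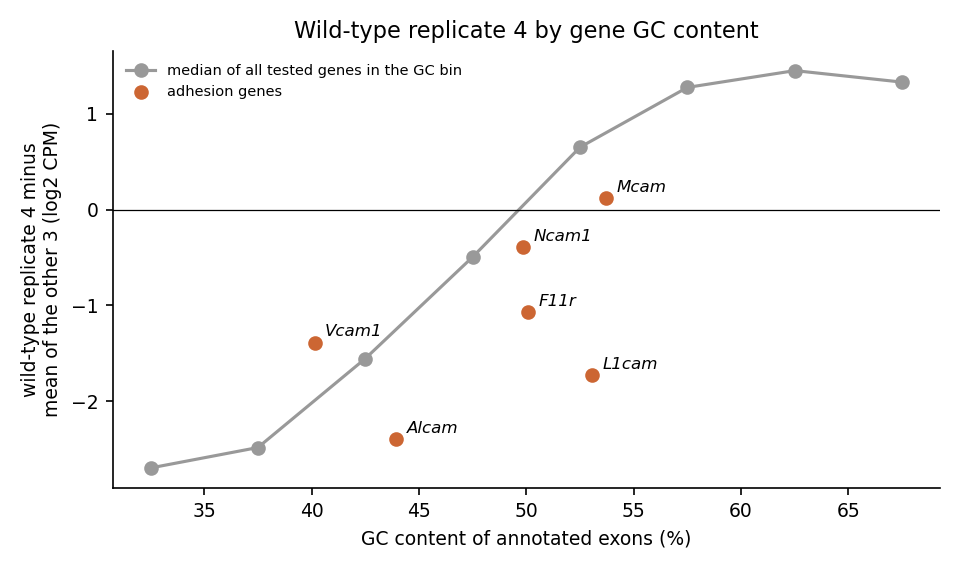
Deviation of wild-type replicate 4 from the mean of the other 3 wild-type libraries (log2 CPM) against the GC content of the longest annotated transcript (%, on the axis as annotated exons). Grey shows medians of all tested genes in bins of GC, and orange shows the 6 tested adhesion genes. The medians rise from -2.69 in the lowest bin to 1.45, and Vcam1 lies above the line that joins them while the other adhesion genes lie below it.

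The genes whose log2 CPM followed Vcam1 most closely over the 8 libraries were ranked by Pearson correlation among 11833 genes with a mean of at least 1 CPM. The 8 points share the split between genotypes and the depth and base composition of each library, so the values are a description. Gas7, a cytoskeletal adaptor gene, came first at 0.996, and at 0.992 without wild-type replicate 4, where it was again first. It ranged from 14.1 to 34.3 CPM in wild-type and from 41.6 to 63.3 CPM in ΔAgo2 libraries. The next were Agbl3 at 0.975, Glrp1 at 0.958, Bend6 and Acaca at 0.953, Sc5d at 0.953, Fer1l6 at 0.951, Unc13c at 0.949, Dhrs9 at 0.948 and Tmem200a at 0.947. Without wild-type replicate 4 these 9 ranked between 10 and 80. Among the adhesion genes the same measure against Vcam1 was -0.884 for Mcam, 0.847 for Cadm1, 0.784 for Selp, 0.704 for Sele, 0.701 for Alcam, 0.647 for Ncam1, 0.368 for L1cam and 0.283 for F11r. Without wild-type replicate 4 it was -0.952 for Mcam, 0.751 for Cadm1, 0.567 for Selp, 0.485 for Sele, 0.480 for Ncam1 and 0.159 for Alcam, and it changed sign for L1cam, to -0.200, and for F11r, to -0.262.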

How the data were processed

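The authors purified RNA from cultured LLC cells, made stranded poly(A) libraries, aligned the reads to ribosomal RNA and then to mm10, and counted them on genes with featureCounts. STAR is named in the submitters' processing notes. The gene annotation and the strand setting of the counting are not given in the sources used here, so overlapping and antisense genes could share reads. The deposited counts are whole reads per gene without normalization, and the authors also deposited TPM of the same 8 libraries, rounded to 2 decimals. A gene at 3 counts or fewer in every library of a group was taken as at the floor, and floors cover counting error only.

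Symbols, positions, exon length and the GC content of the longest transcript came from GENCODE M21 (GRCm38), to which all but 93 of 55487 identifiers matched. Libraries were grouped by their labels. Genes were filtered with filterByExpr (14228 left), scaled with TMM and tested with the quasi-likelihood test of edgeR 4.0.16 in R 4.3.3, two-sided, with genotype as the only factor and Benjamini-Hochberg adjustment over all tested genes. The study's own analysis used DESeq2, run here as version 1.42.0 among the alternatives, with limma 3.58.1, other scalings and filters, GC correction, the replicate number as a block, each library left out, and limma on log2(TPM + 1) and log2(TPM + 0.1). CPM are counts over the TMM-scaled library size. Levels are compared between genes in TPM only. TPM rebuilt from the counts and exon lengths gave the same levels within the spread of replicates. Promoters and the microRNA came from RefSeq tables.

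The 7 genes, the lists and the alternatives were chosen with earlier results of these data known, so no list counts as independent support. Genes named are the 7 genes, Ago2, up to 4 genes a direction in each list with the smallest unadjusted p under 0.05, the 10 genes most like Vcam1, the defining markers of each cell type, and the integrin chains Itga4, Itgb1, Itgal and Itgb2. The values of 1 gene that this rule picks are not reported here. Itgb7 and the motifs were chosen after their values were seen. Cd99 had no match in the annotation by symbol. Same-numbered libraries did not deviate together throughout (correlations -0.138, -0.0491, 0.384 and 0.0278 for numbers 1 to 4), so the numbers were not used as pairs. The scripts were tested on simulated counts.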

Additional observations from a re-analysis of the deposited data

Results flagged for a closer look

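In groups of 4 libraries, a library far from the other 3 by Dixon's criterion was looked for in 46 gene and genotype groups, of which chance gives about 1 in 20, and 2 were found. F11r in ΔAgo2 replicate 4 was the lowest of its group at a gap of 0.930 of the range, with 553 counts against 687 to 1015 in the other 3 ΔAgo2 libraries. Pdgfrb in ΔAgo2 replicate 4 was the highest of its group at a gap of 0.834 of the range, with 82 counts against 11 to 16.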

How the results depend on the processing

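Of the 7 genes, Vcam1, Mcam, L1cam, Ncam1 and F11r kept their direction in all 23 alternative settings, and Alcam changed sign in 1 of them, at -0.09 with sample quality weights. The log2 fold change of Mcam was -1.71 in both fits on log2(TPM + 1), with and without a filter, where the added 1 is of the size of the TPM itself. The count of all genes called, 42, became 399 with DESeq2 (133 higher, 266 lower), 257 with sample quality weights (104 and 153), 143 without a filter on low counts, 71 with GC correction, 15 on log2(TPM + 1) and 16 on it without a filter. It ranged from 1, without ΔAgo2 replicate 1, to 113, without wild-type replicate 4, when 1 library was left out, and was 12 without wild-type replicate 1, 78 without wild-type replicate 2 and 7 without each of ΔAgo2 replicates 2, 3 and 4. A replicate block gave 18 calls (4 higher, 14 lower) and, with GC correction, 65, and 1 of 4 numbers was the best match of its own libraries. Among the 7 genes 1 was called with DESeq2, sample quality weights and no filter, and 0 to 1 with a library left out (wild-type replicate 2). It was Mcam each time, and Vcam1 was called in 0 of 23 alternatives. Over all genes 2.23%, 1.81% and 0.515% were called in those 3 settings, and 0.541% without wild-type replicate 2. Nothing is read from the calls on the 7 genes, since they were chosen on this contrast. Of the other immunoglobulin-family genes 5, 2 and 1 were called in these 3 settings, and 0 to 1 with a library left out. Of the shedding genes 1 (Timp3) was called with DESeq2 and 0 to 1 with a library left out. Of the cytoplasmic partners 1 (Ank2) was called with DESeq2 and 1 (again Ank2) with sample quality weights. Of the selectin cascade 1 was called with DESeq2, 1 without a filter and 1 with GC correction and the block, Selp each time. Of the mesenchymal markers 2 (Pdgfrb and Acta2) were called with DESeq2 and 1 (Acta2) without a filter. The block changed no other call on these genes. Where nothing above shows the cause of a change, the cause was not tested. Depth limits Icam1, which was too low to be tested.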
